A study of Mus musculus with 22 samples.

Results

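The genes described are 9 members of the MHC class I antigen presentation pathway, *B2m*, *H2-K1*, *H2-D1*, *Tap1*, *Tap2*, *Tapbp*, *Psmb8*, *Psmb9* and *Nlrc5*. They were matched by symbol to 1 Ensembl gene each, and all 9 are among the 24296 genes that the P9 and the E14.5 count tables have in common. RNA was sequenced from 22 libraries of 100 tdTomato+ pancreatic endocrine cells each, sorted by fluorescence. The 6 P9 *Isl1CKO* libraries and the 5 E14.5 *Isl1CKO* libraries came from mice with both *Isl1* alleles floxed (*Isl1* f/f; Neurod1-Cre; TomatoAi14). The 5 P9 control libraries and the 6 E14.5 control libraries came from mice labelled WT. The study gives the genotype of the E14.5 controls as *Isl1* f/+; Neurod1-Cre; TomatoAi14, while its general account of the animals names *Isl1* f/+ or *Isl1* f/f mice as controls and mentions no Cre for them, and the genotype of the P9 controls is not stated apart from that. Neurod1-Cre is active in *Neurod1*-expressing endocrine cells, and the tdTomato reporter needs Cre to be switched on, so the sorted control cells carried Cre at both ages. The study describes breeding *Isl1* f/f females to males that were *Isl1* f/+ with Neurod1-Cre. From that cross, an animal with Cre that is not *Isl1CKO* is *Isl1* f/+. The animals were littermates of both sexes on a C57BL/6 background. Whether a library came from 1 animal or from several is not given in the sources used here. P9 pancreases were digested with collagenase and trypsin, E14.5 pancreases with trypsin alone, and the ages were counted in separate tables. Age therefore cannot be told apart from dissociation or from any batch that goes with it, and the labels name no batch.

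Class I molecules show fragments of the cell's own proteins to CD8+ T cells. Proteins are cut by the proteasome, in which the immunoproteasome subunits PSMB8 and PSMB9 can replace constitutive subunits, and the peptides are pumped into the endoplasmic reticulum by the TAP1-TAP2 transporter. There tapasin, encoded by *Tapbp*, holds the transporter next to class I heavy chains (H2-K1 and H2-D1 in the mouse), which leave for the surface only with the light chain beta-2-microglobulin, encoded by *B2m*. NLRC5 is a transactivator that acts on class I promoters, and interferons raise the whole pathway. In islets the pathway is known chiefly from autoimmune diabetes, where class I on beta cells is recognised by CD8+ T cells.

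Of the members, 7 lie on chromosome 17 of GRCm38 in the major histocompatibility complex. *Psmb9* (34181987 to 34187764, minus strand), *Tap1* (34187553 to 34197225, plus strand), *Psmb8* (34197721 to 34201454, plus strand) and *Tap2* (34203527 to 34216321, plus strand) follow each other within 34.3 kb. *Psmb9* and *Tap1* are transcribed away from each other and overlap by 212 bases, and since the counting is not stated to use strand, reads from those bases cannot be told apart. *Tapbp* lies from 33915899 to 33929292, *H2-K1* from 33996017 to 34000347 and *H2-D1* from 35262730 to 35267499. *B2m* lies on chromosome 2 from 122147686 to 122153083 and *Nlrc5* on chromosome 8 from 94434356 to 94527272. *H2-K1* and *H2-D1* are close paralogs, and reads that map to several places were not counted, so the division of reads between them is uncertain.

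RefSeq start windows, from 250 bases before to 50 bases after the start on GRCm38.p6, were held for 7 of the 9 members, with *Tap2* and *Nlrc5* left out. Those of *B2m*, *H2-K1*, *H2-D1* and *Tap1* are shown because the first 3 belong to the most abundant members and *Tap1* shares its window with *Psmb9*. They are chr2:122147437-122147736 (plus strand), chr17:34000298-34000597 (minus strand), chr17:35262844-35263143 (plus strand) and chr17:34187306-34187605 (plus strand), each written 5′ to 3′ with matches to the motifs searched in capitals.
B2m: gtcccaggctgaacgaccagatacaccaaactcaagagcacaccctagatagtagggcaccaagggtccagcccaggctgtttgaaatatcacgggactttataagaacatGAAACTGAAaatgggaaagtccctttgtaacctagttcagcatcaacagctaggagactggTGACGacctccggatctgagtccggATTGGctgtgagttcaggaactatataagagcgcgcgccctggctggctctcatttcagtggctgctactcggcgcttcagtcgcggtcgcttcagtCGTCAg
H2-K1: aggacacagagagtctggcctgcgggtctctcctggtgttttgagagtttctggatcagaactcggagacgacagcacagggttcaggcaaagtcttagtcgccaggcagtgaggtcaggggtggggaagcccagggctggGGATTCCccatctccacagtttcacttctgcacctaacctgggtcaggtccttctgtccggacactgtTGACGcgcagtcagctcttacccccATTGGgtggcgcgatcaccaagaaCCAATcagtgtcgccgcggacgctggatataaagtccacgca
H2-D1: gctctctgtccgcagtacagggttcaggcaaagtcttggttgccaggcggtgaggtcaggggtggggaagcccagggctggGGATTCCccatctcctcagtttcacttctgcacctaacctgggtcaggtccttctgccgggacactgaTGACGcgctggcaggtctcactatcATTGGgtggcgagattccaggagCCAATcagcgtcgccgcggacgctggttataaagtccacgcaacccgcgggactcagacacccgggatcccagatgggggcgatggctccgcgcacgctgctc
Tap1: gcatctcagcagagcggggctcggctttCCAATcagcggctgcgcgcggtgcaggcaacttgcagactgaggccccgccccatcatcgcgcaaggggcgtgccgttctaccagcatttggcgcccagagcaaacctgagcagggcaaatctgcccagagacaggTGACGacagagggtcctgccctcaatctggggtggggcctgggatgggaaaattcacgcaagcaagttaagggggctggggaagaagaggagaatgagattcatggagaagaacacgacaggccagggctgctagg

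The motifs, searched on both strands, were the interferon response core GAAANNGAA, the GAS element TTCNNNGAA, the NF-kappaB core GGATTCC, the cyclic AMP element TGACGTCA, the LIM homeodomain core CTAATG, and 2 short motifs added after the sequences had been read, TGACG and CCAAT. The motif TGACG is contained in TGACGTCA, and no other motif of the set lies within another. TGACG was in the windows of 5 of 7 members (*B2m*, *H2-K1*, *H2-D1*, *Tap1* and *Psmb9*), against 23% of 27025 genes. CCAAT was in 6 of 7, all but *Psmb8*, against 41.1% of genes. GGATTCC was in *H2-K1* and *H2-D1* alone (4.39% of genes), and their windows share a run of 47 identical bases that holds it. GAAANNGAA was in *B2m* alone (9.76% of genes) and TTCNNNGAA in *Psmb8* alone (9.55%). Only the letters given were searched, so a window without a match can still hold a variant of the same element. TGACGTCA and CTAATG were in no member's window, against 2.03% and 8.49% of genes. From its own mapping of ISL1 in E14.5 endocrine cells, the study reports ISL1 binding at the promoter region of *B2m*. It counts *B2m* among the endocrine progenitor signature genes upregulated in *Isl1CKO*. The absence of CTAATG from a window therefore does not tell whether ISL1 binds there. The *Tap1* and *Psmb9* windows share 275 bases, so a match there counts for both genes.

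Library totals were 8477482 to 13580985 counts. All 13 endocrine markers had reads in each group. *Sst* was all but absent in P9 *Isl1CKO*, with a median of 0 and a highest value of 0.258 CPM, against a mean of 70.7 CPM in P9 controls. The 8 hormone genes took 22.0% ± 6.46 of the counts in P9 *Isl1CKO* (SD, n = 6), 54.3% ± 2.42 in P9 controls (n = 5), 1.68% ± 0.793 in E14.5 *Isl1CKO* (n = 5) and 4.08% ± 1.34 in E14.5 controls (n = 6). Because hormone transcripts fill so unequal a share, levels are given as CPM, a gene's count scaled to a common library size after adjustment by TMM, a scaling that balances the bulk of the genes. *Isl1*, the deleted gene, had 335 to 934 CPM in P9 *Isl1CKO* and 269 to 396 CPM in P9 controls, and 732 to 952 CPM in E14.5 *Isl1CKO* and 1043 to 1385 CPM in E14.5 controls. *Isl1* was higher in *Isl1CKO* at P9 (log2 fold change 1.08, standard error or SE 0.215, edgeR adjusted p = 0.00813), against what the label of that group would lead to, and lower in *Isl1CKO* at E14.5 (-0.48, 0.0793, adjusted p = 0.00633). The counts sum all exons, including any that a floxed allele keeps, so they do not check the deletion, and P9 *Isl1CKO* means the libraries labelled so throughout. Among markers of other cell types, macrophage markers summed to 74.9, 112 and 150 CPM in E14.5 *Isl1CKO* libraries 5, 3 and 4, against 45.6 and 41.5 CPM in libraries 1 and 2 and 39.8 to 64.1 CPM in the 6 E14.5 controls. *C1qa* alone averaged 40.8 CPM in E14.5 *Isl1CKO* and 40.1 CPM in E14.5 controls, where the sums averaged 84.7 and 48.6 CPM. The sum in controls was thus mostly this 1 gene. Mesenchymal markers summed to 13.4 to 26.1 CPM in E14.5 *Isl1CKO* and 18.8 to 65.1 CPM in E14.5 controls. Endothelial markers summed to 11.3 to 88.9 CPM in P9 *Isl1CKO* and 2.04 to 6.89 CPM in P9 controls, a sum made up mostly of *Cldn5*, with means of 32.4 and 0.826 CPM, and *Esam*, with 11.1 and 2.50 CPM.

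Per kilobase of exon (CPM per kb), the heavy chain genes and *B2m* were the most abundant members in all 4 groups, and *Nlrc5* had the lowest mean, with libraries that overlapped those of *Psmb8* in E14.5 controls. *H2-K1* and *H2-D1* led in P9 *Isl1CKO*, at 107 ± 14.2 and 107 ± 28 CPM per kb (SD, n = 6), and in P9 controls, at 81.8 ± 15.1 and 78.9 ± 8.5 CPM per kb (n = 5). Their libraries overlapped in both groups, so neither can be ranked above the other. *B2m* followed with 70.8 ± 22 CPM per kb in P9 *Isl1CKO*, overlapping *H2-D1*, and 40.1 ± 14.2 CPM per kb in P9 controls, below every *H2-D1* value. In E14.5 *Isl1CKO*, *B2m* stood at 51.3 ± 14.2, *H2-D1* at 50.5 ± 13.4 and *H2-K1* at 29.8 ± 10.3 CPM per kb (n = 5), each overlapping the next. In E14.5 controls the order was *H2-D1* at 43.7 ± 10.4, *B2m* at 24.8 ± 5.98 and *H2-K1* at 21 ± 3.87 CPM per kb (n = 6), again with overlap between neighbours. *Tapbp* came next in each group, at group means of 17.3, 15.2, 14.8 and 11.4 CPM per kb in P9 *Isl1CKO*, P9 controls, E14.5 *Isl1CKO* and E14.5 controls. The transporter and immunoproteasome genes had group means of 0.143 to 3.74 CPM per kb, and neighbours in their order overlapped in every group.

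**Figure D1:**
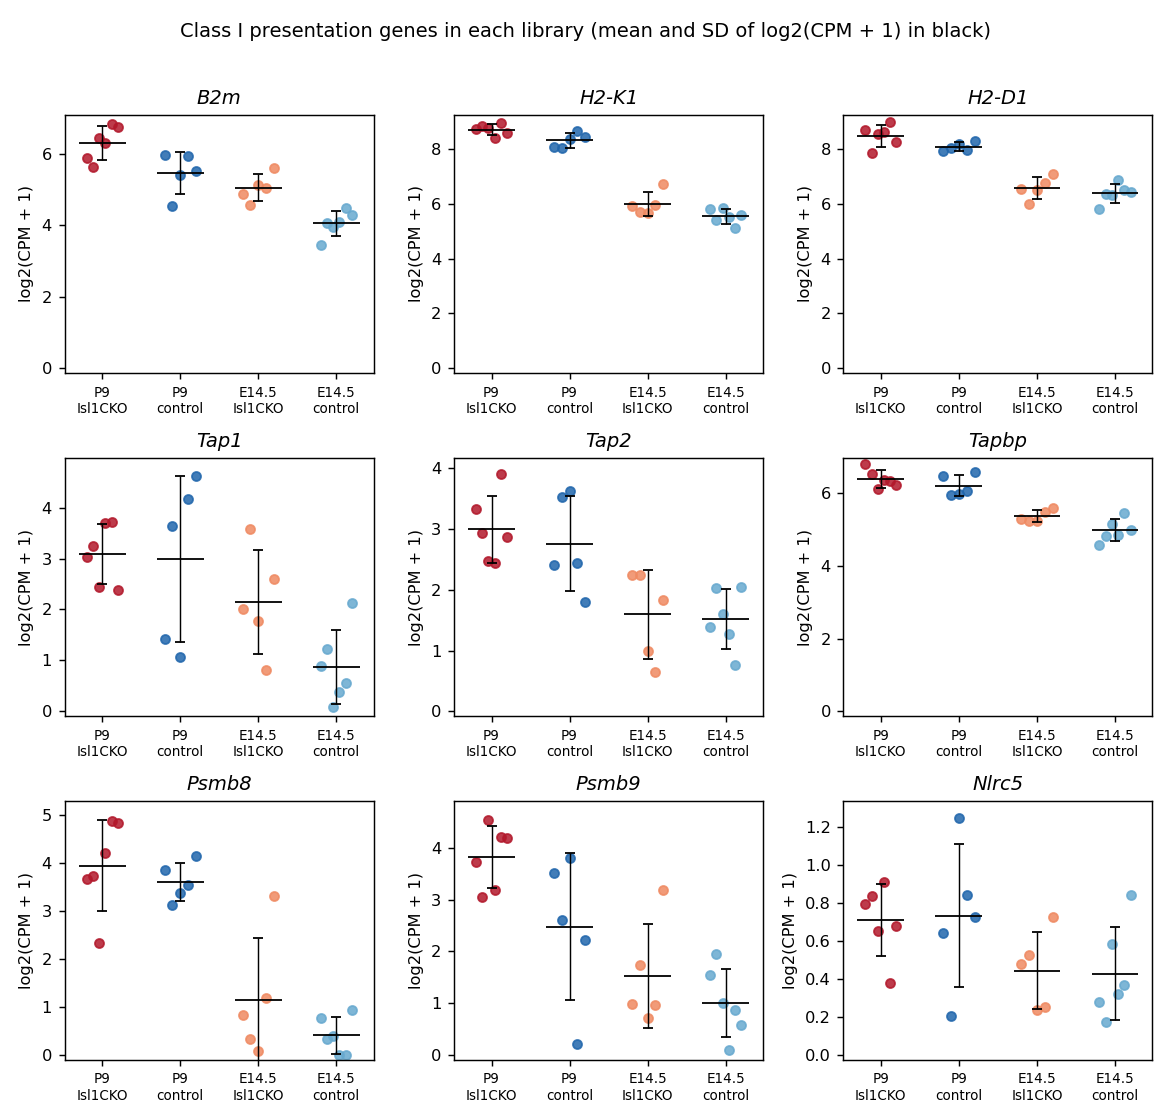
Level of each member in each of the 22 libraries, as log2(CPM + 1) with TMM factors of all 22 libraries on the y axis and the 4 groups on the x axis; points are libraries, black lines the mean and bars the SD. *H2-K1*, *H2-D1* and *Tapbp* separate the P9 groups from the E14.5 groups without overlap, while *Nlrc5* stays at or below 1.38 CPM in each library.

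*Nlrc5* was close to the limit of detection. It had 7, 7, 5, 7, 3 and 7 counts in the P9 *Isl1CKO* libraries and 4, 1, 10, 5 and 5 counts in the P9 controls. At E14.5 it had 6, 7, 3, 3 and 12 counts in *Isl1CKO* and 3, 2, 8, 4, 5 and 13 counts in controls. The groups overlapped at both ages, the gene fell below the count filter at both, and no difference was detectable at this depth. Tests therefore cover 8 of the 9 members.

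The first comparison asks whether loss of *Isl1* altered the pathway in endocrine cells of the E14.5 pancreas. *B2m*, the light chain shared by all classical class I molecules, was 2.07-fold higher in *Isl1CKO*, and it was the only member of 8 tested to pass the threshold. It had 38.4, 30.4, 45.5, 42.6 and 63.5 CPM in the 5 *Isl1CKO* libraries, against 13.2 to 28.3 CPM with a median of 21.2 CPM in the 6 controls. Every *Isl1CKO* library thus lay above every control library. The means were 44.1 ± 12.2 CPM (SD, n = 5) and 21.3 ± 5.14 CPM (SD, n = 6), a log2 fold change of 1.05 with a SE of 0.211. By the quasi-likelihood test of edgeR the p adjusted over 15960 genes (Benjamini-Hochberg) was 0.0241. Of all genes tested 0.602% were called higher and 1.43% were called in either direction, and 1.2% lay higher without overlap. In such bulk samples, a change in the number of cells of a type and a change in RNA per cell cannot be told apart.

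The call for *B2m* rested on the libraries in use. *Isl1CKO* libraries 3, 4 and 5, which carried more macrophage transcripts, had 45.5, 42.6 and 63.5 CPM of *B2m*. Libraries 1 and 2, with macrophage sums in the control range, had 38.4 and 30.4 CPM, and the highest control library had 28.3 CPM. Without libraries 3, 4 and 5 the *B2m* fitted log2 change was 0.69 (SE 0.271, adjusted p = 0.55). With the macrophage level as a term it was 0.83 (0.258, adjusted p = 0.278), that level being the mean log2(CPM + 1) of the markers and not their sum. Leaving out *Isl1CKO* library 5 gave *B2m* 0.88 (adjusted p = 0.0845), and the call was also lost without *Isl1CKO* library 3 (1.04, adjusted p = 0.0591), control library 2 (1.04, adjusted p = 0.052) or control library 3 (1.02, adjusted p = 0.0552). In a fit of all 22 libraries *B2m* kept the value 1.05 with an adjusted p of 0.104. *Isl1* also lost its E14.5 call without *Isl1CKO* libraries 3, 4 and 5 (-0.45, adjusted p = 0.12). The same held with the macrophage level as a term (-0.50, adjusted p = 0.0503) and in the fit of all 22 libraries (-0.49, adjusted p = 0.468). Of the 12 macrophage markers all 12 were counted in E14.5 *Isl1CKO* libraries and 11 in controls, where *Tyrobp* was at 0. The 6 that could be tested had a median log2 fold change of 2.02, and none passed in edgeR or DESeq2, although 4 had an unadjusted p under 0.05 in edgeR. Of 3 mesenchymal markers tested (*Col1a2*, *Dcn* and *Col3a1*) all had a negative log2 fold change, with a median of -1.45, and an unadjusted p under 0.05, and none passed in edgeR while DESeq2 called 2. Their part in the *B2m* difference was not tested.

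The heavy chain genes were not called at E14.5. *H2-K1* had 80.2, 67.8, 67.2, 81.9 and 140.4 CPM in *Isl1CKO*, against 44.5 to 75.5 CPM with a median of 61.2 CPM in controls. Library 5 stood far above the other *Isl1CKO* libraries, and 3 of 5 exceeded all controls. The fitted log2 change was 0.51 (SE 0.191, adjusted p = 0.295), and 0.27 without library 5. *H2-D1* had 124, 83.9, 120.5, 144 and 178 CPM in *Isl1CKO*, against 72.1 to 156 CPM with a median of 111 CPM in controls, and the groups overlapped widely. Its fitted log2 change was 0.21 (0.19, adjusted p = 0.754), with the opposite sign, -0.11, once *Isl1CKO* libraries 3, 4 and 5 were left out.

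The peptide supply genes were more variable. *Tap1*, which encodes a subunit of the peptide transporter, had 4.07, 14.51, 3.22, 1.02 and 6.78 CPM in *Isl1CKO*, against 0.0828 to 4.47 CPM with a median of 0.87 CPM in controls. The groups overlapped, and the log2 fold change of 2.05 had a SE of 0.792 (adjusted p = 0.308). Leaving out 1 library moved the *Tap1* value between 1.41 (without *Isl1CKO* library 2) and 2.87 (without control library 6). *Psmb8* had 1.06, 0.333, 0.0784, 1.69 and 11.8 CPM in *Isl1CKO*, against 0 to 1.22 CPM in controls, 2 of which had no read. Its log2 fold change was 2.62 (SE 1.14, adjusted p = 0.39), and 0.70 without library 5. *Psmb9* likewise had 10.8 CPM in *Isl1CKO* library 5 and 0.863 to 3.08 CPM in the other 4, against 0.0826 to 3.84 CPM in controls, with a log2 fold change of 1.13 (0.802, adjusted p = 0.659) that became 0.05 without library 5. *Tapbp* had 51.2, 48.2, 49.2, 58.2 and 62.2 CPM in *Isl1CKO* and 30.2 to 57.2 CPM in controls, a log2 fold change of 0.38 (0.154, adjusted p = 0.339). *Tap2*, the partner of *Tap1*, averaged 3.11 ± 2 CPM in *Isl1CKO* (SD, n = 5) and 2.67 ± 1.29 CPM in controls (n = 6), a log2 fold change of 0.22 (0.55, adjusted p = 0.936).

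**Figure D2:**
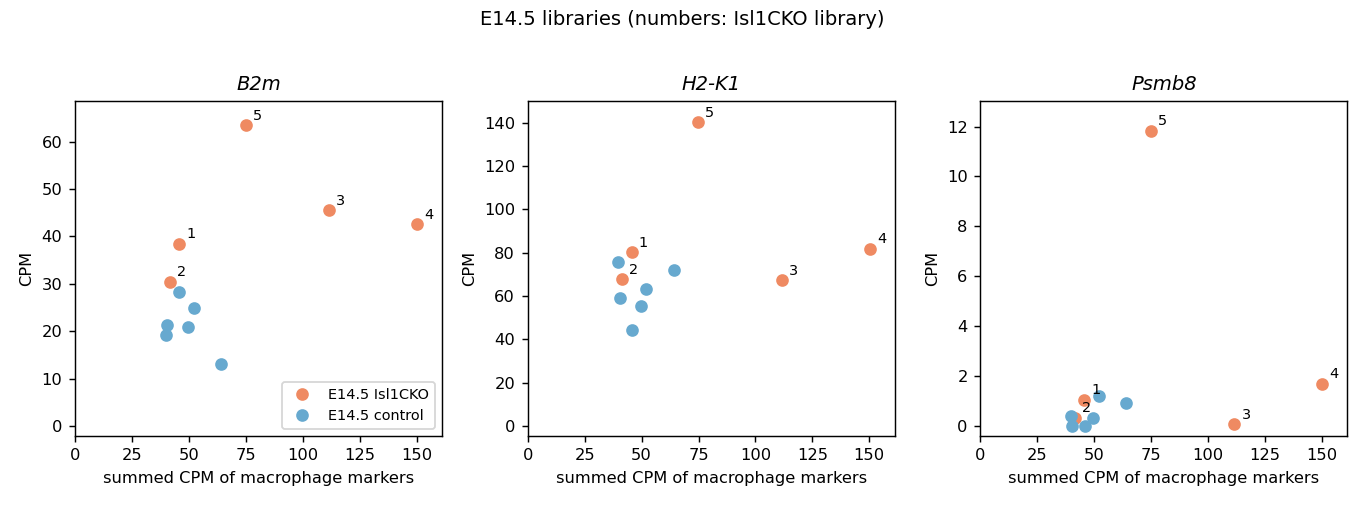
Level of *B2m*, *H2-K1* and *Psmb8* in CPM (y axis) against the summed CPM of the macrophage markers (x axis) in the 11 E14.5 libraries, with the number of each *Isl1CKO* library beside its point. *Isl1CKO* library 5, with a macrophage sum of 74.9 CPM, is highest for all 3 genes, libraries 3 and 4 have macrophage sums of 112 and 150 CPM, and *B2m* is above every control in all 5 *Isl1CKO* libraries.

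All 8 tested members had a positive log2 fold change at E14.5, with a median of 0.78 against -0.0045 over all genes, and 5 had an unadjusted p under 0.05. The share of all genes with such an unadjusted p was not counted, here or in the later comparisons. Counts of this kind therefore have no background to be read against, and the members were chosen with earlier results known. Lists of genes around the pathway had lower medians. Of 16 other class I pathway genes 13 were tested and none passed in edgeR or DESeq2 (1 with an unadjusted p under 0.05 in edgeR), with a median log2 fold change of 0.09, and the smallest p-values were those of *Erap1*, a peptide-trimming enzyme (0.31, adjusted p = 0.282), and *Psmb10*, the remaining immunoproteasome subunit (0.35, adjusted p = 0.557). None of the 20 interferon and class I regulators passed in either tool (none with an unadjusted p under 0.05, median 0.08), among them *Ifnar2* and *Ifngr2*, which encode interferon receptor chains, at 0.46 and 0.34 (adjusted p = 0.497 and 0.599). Of 11 interferon-stimulated genes tested, *Rsad2*, which encodes the antiviral protein viperin, was lower in *Isl1CKO*, at 2.75 ± 1.46 CPM (SD, n = 5) against 11.1 ± 6.27 CPM in controls (n = 6), a log2 ratio of -2.01 (SE 0.457, adjusted p = 0.0437), and the others did not pass. The *Rsad2* call was lost when any of 9 of the 11 libraries was left out. None of 3 class II genes tested passed in either tool or had an unadjusted p under 0.05, and the summed level of the class II list was 9.96 to 26.2 CPM in *Isl1CKO* and 7.76 to 20.1 CPM in controls.

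At P9, the second comparison of the genotypes, no member passed the threshold. Of 13964 genes tested 4.81% were called in either direction and 2.66% were called higher in *Isl1CKO*. Of the 8 members 7 had a positive log2 fold change, with a median of 0.41 against 0.02 over all genes, and 3 had an unadjusted p under 0.05 (*B2m*, *H2-K1* and *H2-D1*). DESeq2 also called 0 of 8. *B2m* had 36.0 to 83.8 CPM with a median of 61.7 CPM in the 6 *Isl1CKO* libraries, against 45.9, 16.5, 31.2, 45.9 and 32.9 CPM in controls. In 4 of 6 *Isl1CKO* libraries it exceeded all controls. The means were 60.9 ± 18.9 CPM (SD, n = 6) and 34.5 ± 12.2 CPM (SD, n = 5), a log2 ratio of 0.82 (SE 0.285, adjusted p = 0.123), and the fit of all 22 libraries called *B2m* at 0.83 (0.263, adjusted p = 0.0446).

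The heavy chain genes showed the same kind of partial overlap at P9. *H2-K1* had 251 to 367 CPM with a median of 320.1 CPM in *Isl1CKO*, against 200.4, 194, 249, 301 and 257 CPM in controls. Its fitted log2 change was 0.39 (SE 0.146, adjusted p = 0.164). *H2-D1* had 170.3 to 380.4 CPM with a median of 287 CPM in *Isl1CKO*, against 182, 194, 219.6, 189 and 233 CPM in controls, a log2 fold change of 0.44 (0.177, adjusted p = 0.2). In both, 4 of 6 *Isl1CKO* libraries lay above all controls, and 2 did not.

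Scaling decided whether these genes were called. The hormone genes took less of the counts in P9 *Isl1CKO*, so that with total counts and no composition factor the median of all genes was a log2 fold change of 0.68. On that scale *B2m* (1.51, adjusted p = 0.00361), *H2-K1* (1.05, adjusted p = 0.000347), *H2-D1* (1.11, adjusted p = 0.00153) and *Tapbp* (0.83, adjusted p = 0.0055) were called. The shift applies to all genes alike, and with TMM factors none of the 4 passed. Among markers of other cells at P9, the 7 endothelial markers were all counted in both groups and 2 were tested, of which *Cldn5* was called higher in *Isl1CKO* and *Esam* was not (adjusted p = 0.0807). The list did not move as one, since *Kdr*, *Tek* and *Emcn* averaged 0.442, 0.16 and 0.216 CPM in *Isl1CKO* against 0.531, 0.227 and 0.425 CPM in controls. Of 6 exocrine markers tested all had a negative log2 fold change (median -1.74), 4 of them with an unadjusted p under 0.05, and none passed in edgeR while DESeq2 called 1. Exocrine markers summed to 8.05 to 93.8 CPM in P9 *Isl1CKO* and 29.8 to 545 CPM in P9 controls. The part of these cells in the values of the class I genes was not tested.

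None of the peptide supply genes passed at P9. *Tap1* had 3.12 to 9.04 CPM with a median of 5.85 CPM in *Isl1CKO*, against 1.25, 8.58, 0.834, 12.9 and 17.4 CPM in controls. Of the 5 controls 2 lay below the *Isl1CKO* range and 2 above it, and the log2 fold change of -0.44 (SE 0.679, adjusted p = 0.82) changed sign to 0.27 with total counts and to 0.04 without control library 5. *Psmb8* had 3.01 to 21.2 CPM with a median of 11.2 CPM in *Isl1CKO*, against 10, 5.76, 7.09, 8 and 12.4 CPM in controls, a log2 fold change of 0.55 (0.464, adjusted p = 0.621). *Psmb9* had 5.46 to 16.9 CPM with a median of 11.0 CPM in *Isl1CKO*, against 7.83, 3.84, 9.9, 0.119 and 2.72 CPM in controls, a log2 fold change of 1.11 (0.68, adjusted p = 0.453). Control library 4, with a single *Psmb9* read, had 67 reads of *Psmb8*, so the low value was not shared by the other subunit. *Tap2* averaged 5.61 ± 2.7 CPM in *Isl1CKO* and 4.98 ± 3.03 CPM in controls, and *Tapbp* 62.6 ± 11.1 CPM and 55.3 ± 11.2 CPM (SD, n = 6 and 5), with log2 fold changes of 0.17 and 0.18 (adjusted p = 0.928 and 0.702).

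**Figure D3:**
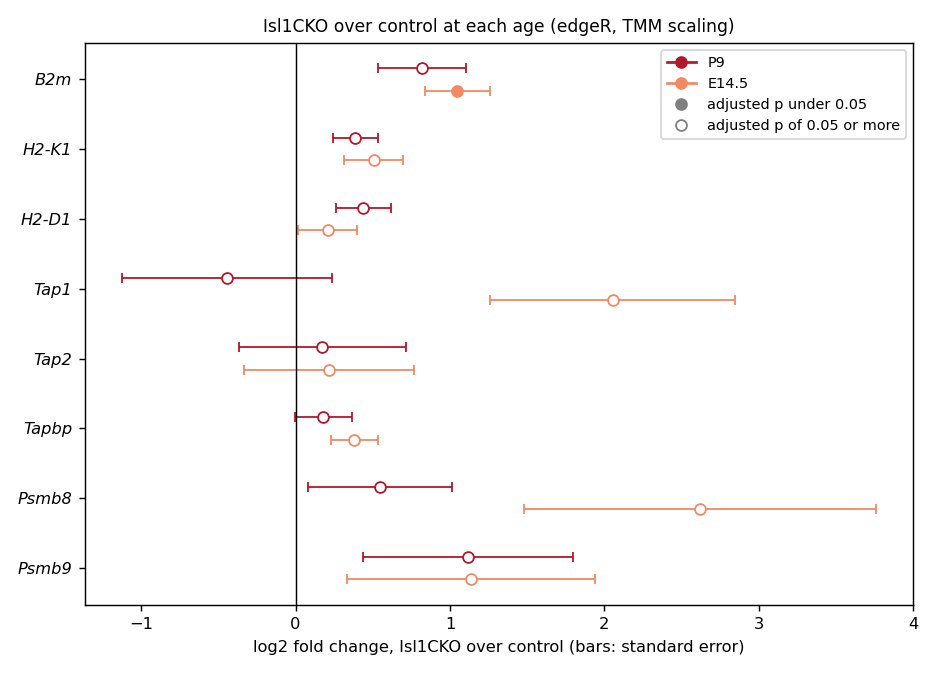
Log2 fold change of *Isl1CKO* over control (x axis) for the 8 tested members at P9 and at E14.5, with the SE as bars; filled points passed an adjusted p of 0.05. Only *B2m* at E14.5 (1.05) is filled, and *Tap1* at P9 (-0.44) is the only point below 0.

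Of the surrounding lists at P9, none of 16 other class I genes passed in edgeR (median log2 fold change 0.21), nor did any of 19 regulators (0.08) or 9 interferon-stimulated genes (1.14). An unadjusted p under 0.05 was reached by 2, 3 and 2 genes of these lists, and DESeq2 called 1 gene of each. *Cd1d1*, which encodes a lipid-presenting class I-like molecule, had 4.38 ± 3.95 CPM in *Isl1CKO* (SD, n = 6) and 0.634 ± 0.748 CPM in controls (n = 5), a log2 fold change of 2.78 that did not pass (SE 1.01, adjusted p = 0.147). *Xaf1*, an interferon-stimulated gene, had 4.59 ± 2.13 CPM in *Isl1CKO* and 1.22 ± 0.698 CPM in controls (1.89, SE 0.608, adjusted p = 0.094). The class II gene *H2-DMa*, whose product edits peptides on class II molecules, was the only gene of its list with enough counts, and it was higher in *Isl1CKO*, at 4.61 ± 2.77 CPM against 0.675 ± 0.323 CPM in controls (2.75, SE 0.719, adjusted p = 0.0404). The call was lost without any of the 5 control libraries, and of the 6 *Isl1CKO* libraries only 1 could be left out with the gene still passing the count filter. In controls *H2-DMa* had 0.239 to 0.938 CPM, so it passed that filter through the *Isl1CKO* libraries. Its being tested and its being higher there are therefore not independent.

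Whether the effect of *Isl1* loss differed between the ages was tested as an interaction over all 22 libraries, in which 2.08% of 17265 genes were called. None of the 8 members was called by edgeR or DESeq2, and 1 had an unadjusted p under 0.05. That was *Tap1*, whose log2 fold change at P9 minus that at E14.5 was -2.49 (SE 1.09, adjusted p = 0.272). For *B2m* the difference was -0.22 (0.367, adjusted p = 0.856), and 0.14 without E14.5 *Isl1CKO* libraries 3, 4 and 5. With total counts the median of all genes was itself 0.68, and *B2m*, at 0.44, lay below it. For *H2-D1* it was 0.24 (0.273, adjusted p = 0.762), and 0.88 with total counts (adjusted p = 0.0463), against the same median of 0.68. The *B2m* values at E14.5 and P9 were thus not shown to differ, though only the first passed its test.

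Between the ages, 7 of the 8 tested members were higher at P9 than at E14.5 in *Isl1CKO*, all but *Tap1*, and 8 of 8 were in controls. Of 17265 genes tested, 16% were called higher at P9 in *Isl1CKO* and 15.8% in controls, and 29.7% and 31% in either direction. The median log2 fold change of the members was 1.80 in *Isl1CKO* and 2.09 in controls, against 0.05 and -0.04 over all genes. The libraries of the ages did not overlap for 5 of the 8 members in *Isl1CKO* (*B2m*, *H2-K1*, *H2-D1*, *Tap2* and *Tapbp*), where 9.21% of genes lay higher without overlap, and for 5 in controls (*B2m*, *H2-K1*, *H2-D1*, *Tapbp* and *Psmb8*), where 9.85% did. Levels in this comparison are CPM with TMM factors of all 22 libraries.

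*H2-K1* had the smallest p of the members in both genotypes. In *Isl1CKO* it had 334 to 493 CPM at P9 with a mean of 421 ± 56.5 CPM (SD, n = 6), against 59.6, 51.0, 50.2, 61.4 and 106 CPM at E14.5. Every P9 library lay above every E14.5 library, and the fitted difference was 6.42-fold (log2 fold change 2.68, SE 0.19, adjusted p = 3.56e-10). In controls *H2-K1* had 268, 259, 329, 399 and 347 CPM at P9, against 33.3 to 56.7 CPM at E14.5. The means were 321 ± 58 CPM (SD, n = 5) and 46.3 ± 8.67 CPM (n = 6), a 6.93-fold difference (2.79, 0.183, adjusted p = 7.06e-11).

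*H2-D1* was 3.78-fold higher at P9 in *Isl1CKO*, at 228 to 511 CPM against 63.1 to 134 CPM at E14.5 (log2 fold change 1.92, SE 0.203, adjusted p = 1.78e-07). In controls *H2-D1* was 3.21-fold higher, at 243, 259.9, 290.2, 249.9 and 315 CPM against 54.3 to 117 CPM (1.68, 0.195, adjusted p = 5.68e-07). *B2m* was 2.47-fold higher at P9 in *Isl1CKO*, at 48.3 to 113 CPM against 28.6, 22.9, 34.0, 31.9 and 47.7 CPM (1.31, 0.266, adjusted p = 0.000631). The lowest P9 library of *Isl1CKO* thus lay just above the highest E14.5 library, library 5. In controls *B2m* was 2.88-fold higher, at 61.5, 22.0, 41.2, 60.7 and 44.4 CPM against 9.91 to 21.1 CPM (1.52, 0.263, adjusted p = 9.98e-05).

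*Psmb8* had the highest fold change of the members. In *Isl1CKO* it had 4 to 28.5 CPM at P9, against 0.788, 0.251, 0.0586, 1.27 and 8.89 CPM at E14.5. Only E14.5 library 5 reached into the P9 range, and the fitted log2 change was 2.90 (SE 0.903, adjusted p = 0.0174), or 4.82 without that library. In controls *Psmb8* had 13.4, 7.7, 9.37, 10.6 and 16.7 CPM at P9, against 0 to 0.915 CPM at E14.5, where the 6 libraries together held 34 reads (4.96, 0.965, adjusted p = 0.000376). *Psmb9* was higher at P9 by log2 fold changes of 2.44 in *Isl1CKO* (0.815, adjusted p = 0.0262) and 2.45 in controls (0.794, adjusted p = 0.0211). The *Psmb9* call was lost in *Isl1CKO* without any of E14.5 *Isl1CKO* libraries 1 to 4 (2.18 to 2.39, adjusted p = 0.057 to 0.0686) and in controls without P9 control library 3 (2.03, adjusted p = 0.0678). Without E14.5 *Isl1CKO* library 5 the *Psmb9* value in *Isl1CKO* was 3.52 (adjusted p = 0.0045).

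*Tap1* did not pass in *Isl1CKO*, with 4.22 to 12.1 CPM at P9 and 3.02, 10.9, 2.4, 0.762 and 5.1 CPM at E14.5 (log2 fold change 0.86, SE 0.778, adjusted p = 0.436). In controls *Tap1* had 1.68, 11.5, 1.1, 17.1 and 23.5 CPM at P9 against 0.0622 to 3.35 CPM at E14.5 (3.36, 0.823, adjusted p = 0.00313), and 2 of the P9 libraries lay within the E14.5 range. The interaction given above is the test of that difference between the genotypes, and it did not pass. *Tap2* was higher at P9 by 1.69 in *Isl1CKO* (0.557, adjusted p = 0.024) and 1.72 in controls (0.542, adjusted p = 0.018). The *Tap2* call was lost in *Isl1CKO* without E14.5 *Isl1CKO* library 3 (1.49, adjusted p = 0.0665) or 4 (1.44, adjusted p = 0.0648) or P9 *Isl1CKO* library 5 (1.41, adjusted p = 0.0601), and in controls without P9 control library 2 (1.48, adjusted p = 0.0534) or 3 (1.44, adjusted p = 0.06). *Tapbp* was 2.08-fold higher in *Isl1CKO*, at 68.2 to 109 CPM against 36.2 to 46.8 CPM (1.06, 0.172, adjusted p = 5.59e-05), and 2.38-fold higher in controls, at 61.1 to 93.6 CPM against 22.8 to 42.7 CPM (1.25, 0.17, adjusted p = 5.15e-06).

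The age differences depended in part on the scaling. With total counts, of which hormone transcripts take a larger share at P9, all genes together had a median log2 fold change of -0.50 in *Isl1CKO* and -1.21 in controls. On that scale 5 of 8 members were called higher at P9 in *Isl1CKO*, *B2m* (0.79), *H2-K1* (2.13), *H2-D1* (1.39), *Tapbp* (0.50) and *Psmb8* (2.41), where 7.05% of all genes were. In controls 4 of 8 were, *H2-K1* (1.62), *H2-D1* (0.50), *Tap1* (2.14) and *Psmb8* (3.81), where 3.5% of all genes were, and *B2m* (0.35), *Tap2* (0.56), *Tapbp* (0.07) and *Psmb9* (1.33) did not pass. All 8 were positive on both scales in both genotypes. Without E14.5 *Isl1CKO* libraries 3, 4 and 5, *Tap2* (0.97, adjusted p = 0.421) and *Psmb9* (3.06, adjusted p = 0.103) lost their calls in *Isl1CKO*, and 8 of 8 stayed called in controls.

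**Figure D4:**
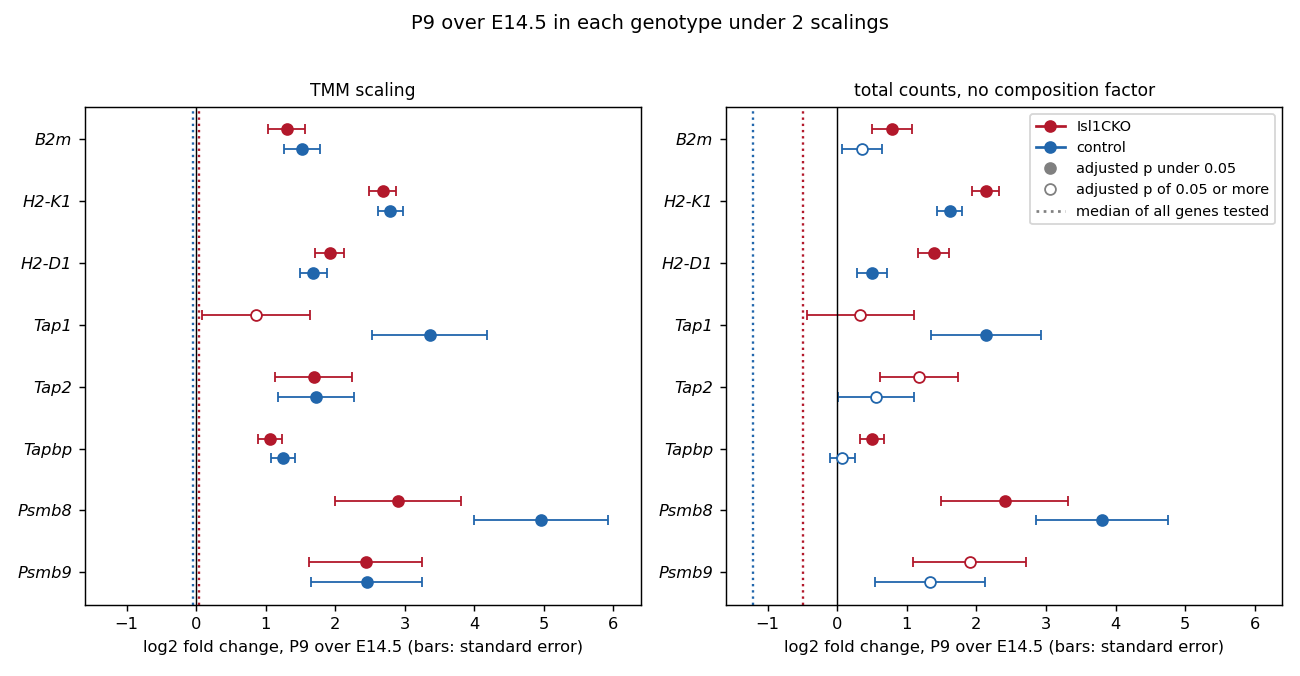
Log2 fold change of P9 over E14.5 (x axis) for the 8 tested members in *Isl1CKO* and in controls, with TMM scaling on the left and total counts on the right; bars are standard errors, filled points passed an adjusted p of 0.05, and dotted lines give the median of all genes tested. The median of all genes moves to -0.50 in *Isl1CKO* and -1.21 in controls on total counts, and *H2-K1* and *Psmb8* are called in both genotypes on both scales.

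The ratio of an immunoproteasome subunit to the constitutive subunit it can replace, taken within a library, does not depend on the scaling. The log2 ratio of *Psmb8* to *Psmb5* counts was -1.40 ± 1.22 in P9 *Isl1CKO* (SD, n = 6), -1.73 ± 0.465 in P9 controls (n = 5), -6.76 ± 2.45 in E14.5 *Isl1CKO* (n = 5) and -8.40 ± 2.00 in E14.5 controls (n = 6). In both genotypes every P9 library lay above every E14.5 library, the nearest being -3.22 at P9 and -3.40 at E14.5, both in *Isl1CKO*. At E14.5 *Psmb8* had only 0 to 15 reads per library in controls and 1 to 164 in *Isl1CKO*. The means and SDs of this ratio at E14.5 therefore depend on the 0.5 added to each count. The log2 ratio of *Psmb9* to *Psmb6* was -5.48 ± 0.777, -7.05 ± 2.40, -7.83 ± 1.52 and -8.92 ± 1.69 in P9 *Isl1CKO*, P9 controls, E14.5 *Isl1CKO* and E14.5 controls, and that of *Psmb10* to *Psmb7* was -0.72 ± 0.278, -1.38 ± 1.31, -1.96 ± 0.263 and -2.22 ± 0.339. Between the genotypes, none of 6 exact two-sided permutation tests passed, with p adjusted over the 6 of 0.379 to 0.593, and none had an unadjusted p under 0.05. The smallest raw p of these exact permutation tests was 0.126, for *Psmb9* over *Psmb6* at P9, a difference of 1.57, and the smallest this design allows is 0.00216. Differences between the ages in these ratios were not tested.

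**Figure D5:**
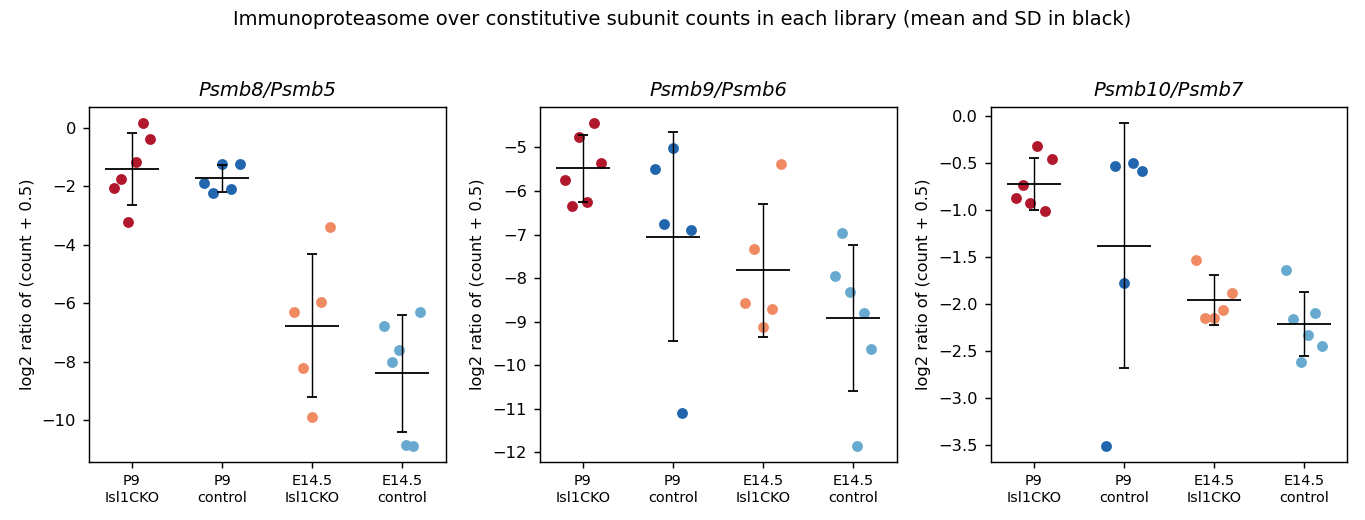
Log2 ratio of (count + 0.5) of each immunoproteasome subunit over its constitutive counterpart (y axis) in each library of the 4 groups (x axis); black lines are means and bars SDs. *Psmb8* over *Psmb5* averages -1.40 and -1.73 in the P9 groups and -6.76 and -8.40 in the E14.5 groups.

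Of the constitutive subunits, *Psmb5* and *Psmb7* were lower at P9 in *Isl1CKO* (log2 fold changes -1.10 and -0.86, adjusted p = 7.22e-05 and 0.00103) and in controls (-0.81 and -0.85, adjusted p = 0.00176 and 0.00127). *Psmb6* was higher by 0.66 in *Isl1CKO* (adjusted p = 0.000382), or 0.10 and not called with total counts. In controls *Psmb6* was higher by 0.35 (adjusted p = 0.0392), a call lost without any 1 of 10 of the 22 libraries and turned to -0.83 with total counts.

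Other class I pathway genes moved in both directions with age. In *Isl1CKO* 2 of 16 were higher and 2 lower at P9, with a median log2 fold change of 0.28, and in controls 5 were higher and 2 lower, with a median of 0.18. Of all genes tested, 16% in *Isl1CKO* and 15.8% in controls were called higher, and 29.7% and 31% in either direction. *H2-M3*, a class I-like gene of the H2-M region, was higher by 1.93 in *Isl1CKO* (SE 0.634, adjusted p = 0.0235) and 2.53 in controls (0.628, adjusted p = 0.00344). *H2-Q7*, a class I gene of the Q region whose reads are hard to separate from those of its paralogs, was higher by 1.65 in *Isl1CKO* (0.623, adjusted p = 0.0484) and 2.36 in controls (0.631, adjusted p = 0.00609). With total counts neither passed in either genotype (*H2-M3* 1.36 and 1.39, *H2-Q7* 1.13 and 1.197), and in *Isl1CKO* the *H2-Q7* call was lost in 16 of 22 leave-one-out fits and the *H2-M3* call in 3. *Psme1*, a subunit of the proteasome activator PA28, was lower, with log2 fold changes of -1.34 in *Isl1CKO* and -1.29 in controls (adjusted p = 6.55e-08 and 1.52e-07). *Cd1d1* had 5.87 ± 5.31 CPM at P9 (SD, n = 6) and 11.5 ± 2.66 CPM at E14.5 (n = 5) in *Isl1CKO*, which did not pass (-0.97, adjusted p = 0.256). In controls *Cd1d1* was lower at P9, at 0.843 ± 0.989 CPM (n = 5) against 13 ± 3.46 CPM at E14.5 (n = 6), a log2 fold change of -3.95 (0.755, adjusted p = 0.000309).

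Interferon-related genes gave no common direction with age. Of 20 regulators 4 were higher and 3 lower at P9 in *Isl1CKO*, and 5 higher and 3 lower in controls. *Irf1*, a transcription factor of class I promoters, was higher by 1.201 in *Isl1CKO* (0.355, adjusted p = 0.0127) and 1.50 in controls (0.349, adjusted p = 0.002), and did not pass with total counts (0.66 and 0.29). *Nfkb1*, which encodes an NF-kappaB subunit, was higher by 0.96 in *Isl1CKO* (0.204, adjusted p = 0.00089) and 1.14 in controls (0.201, adjusted p = 0.000131), but at 0.42 in *Isl1CKO* and -0.05 in controls with total counts, neither called. *Jak1*, an interferon receptor kinase, did not pass in *Isl1CKO* (0.40, adjusted p = 0.0595) and was higher in controls by 0.94 (0.157, adjusted p = 7.28e-05), with the sign reversed at -0.16 and -0.24 with total counts. *Rfxank*, part of the RFX complex that binds MHC promoters, was lower, at -1.78 in *Isl1CKO* and -2.30 in controls (adjusted p = 0.0158 and 0.00406).

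Of 15 interferon-stimulated genes tested, 12 had a positive log2 fold change at P9 in *Isl1CKO* (median 1.40) and 10 in controls (median 0.83). Over all genes the medians were 0.05 and -0.04. Of the 15, 4 were called higher and 1 lower at P9 in *Isl1CKO*, where 16% of all genes were called higher. In controls none was called higher and 1 lower, against 15.8% of all genes called higher. The lower gene was *Usp18*, a negative regulator of interferon signalling, in both, at -3.62 in *Isl1CKO* and -2.89 in controls (adjusted p = 6.11e-06 and 0.00012). In *Isl1CKO*, *Irgm1*, an interferon-inducible GTPase, was higher by 2.20 (0.652, adjusted p = 0.0126) and *Ddx58*, the RNA sensor RIG-I, by 2.01 (0.56, adjusted p = 0.00841), or 1.01 (adjusted p = 0.0686) without P9 *Isl1CKO* library 5. Without E14.5 *Isl1CKO* libraries 3, 4 and 5, the *Isl1CKO* calls of *H2-M3* (1.65), *H2-Q7* (1.41), *Psmb7* (-0.74), *Irf1* (1.13), *Rfxank* (-1.78), *Irgm1* (2.23) and *Ddx58* (2.51) were lost, with adjusted p of 0.0702 to 0.372.

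Markers of other cells also differed between the ages. With the scaling of each age, lymphocyte markers summed to 10.6 to 99.3 CPM in P9 *Isl1CKO*, 19.1 to 37.3 CPM in P9 controls, 3.75 to 5.92 CPM in E14.5 *Isl1CKO* and 0.894 to 7.24 CPM in E14.5 controls, over 6 of 7 markers in the P9 table and 4 in the E14.5 table, none of them at 0 in a whole group. At P9 the sum was nearly all *Cd79a*, a B cell receptor component (31.6 and 29.6 CPM in P9 *Isl1CKO* and P9 controls, 0.0844 and 0.37 CPM in E14.5 *Isl1CKO* and E14.5 controls). *Cd3g*, a T cell receptor component, ran the other way, at 0.452 and 0.0687 CPM in P9 *Isl1CKO* and P9 controls and 4.21 and 3.57 CPM in E14.5 *Isl1CKO* and E14.5 controls, and was called lower at P9 in controls (adjusted p = 0.00625) but not in *Isl1CKO* (adjusted p = 0.074). Macrophage markers summed to 9.19 to 48.3 CPM in P9 *Isl1CKO* and 30.1 to 66.1 CPM in P9 controls, over 11 of 12 markers, with *C1qa* alone averaging 16.2 and 25.4 CPM. Of 10 macrophage markers tested, 3 were lower at P9 in *Isl1CKO*, and 3 were higher at P9 in controls. Of 3 endothelial markers tested 2 were higher at P9 in *Isl1CKO* (*Cldn5* and *Esam*) and 0 in controls, where DESeq2 called 0 as well and 0 had an unadjusted p under 0.05. Of 5 mesenchymal markers 2 were higher in *Isl1CKO* and 1 in controls, and of 5 exocrine markers 1 was higher in *Isl1CKO* and 3 in controls, and none of either list was called lower. Over all genes 29.7% in *Isl1CKO* and 31% in controls were called in either direction. The part of these cells in the age differences of the class I genes was not tested.

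The members did not vary closely together within the groups. Over the 22 libraries, after removing each group's mean, Pearson's r of log2(CPM + 1) between 2 members was above 0 in 20 of 28 pairs, with a median of 0.17 and a range of -0.33 to 0.59. The genes whose pattern was most like that of *B2m* by this measure, among 9957 genes averaging at least 50 scaled counts at both ages, were *Bsn* (r = 0.84), *Ncoa7* (0.77), *Dennd2a* (0.74), *Mospd1* (0.72) and *Zfp687* (0.72). *H2-D1* ranked 219, *Tapbp* 1785 and *H2-K1* 2304 in that order. These correlations describe 22 libraries that differ in depth and whose batches are not named, and they carry no test.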

How the data were processed

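RNA from 22 libraries of 100 sorted tdTomato+ cells was sequenced by the authors, who deposited raw read counts per Ensembl gene in 1 table for each age. Per the study's methods and the labels, reads were trimmed with cutadapt 1.18, filtered with Bowtie 1.2.2 and other tools, aligned to GRCm38 with STAR 2.7.0c and counted with Rsubread, leaving out reads that map to several places. Genes with few counts over a table are not in it.

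The test was that of edgeR 4.0.16 under R 4.3.3 (quasi-likelihood F, TMM factors, filterByExpr), with Benjamini-Hochberg adjustment over all genes tested and a threshold of 0.05. The standard error is that of the log2 fold change, derived from the F statistic. The genotypes were compared within each age, and the ages and the interaction in a fit of all 22 libraries over the genes in both tables. Libraries held 8477482 to 13580985 counts. Subunit ratios used counts with 0.5 added and exact two-sided permutation tests. Alternatives were DESeq2 1.42.0, DESeq2's size factors in edgeR, total counts, totals without 8 hormone genes, no count filter, each library left out, E14.5 *Isl1CKO* libraries 3, 4 and 5 left out, the macrophage level as a term, a replicate block and a joint fit. Fits were tested on simulated data. Where nothing says that libraries came from separate animals, p-values measure only the spread between these libraries.

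The members and gene lists were chosen with earlier results of these data known. Named are all members, *Isl1*, of each other list up to 4 called genes with the smallest p (otherwise the 2 with the smallest p), and the 5 genes most like *B2m*. Of these, a few that add nothing further are left out of the text.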

Additional observations from a re-analysis of the deposited data

Results flagged for a closer look

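In E14.5 *Isl1CKO* library 5, 3 members stood far from the other 4 libraries of its group. *H2-K1* was at 140.4 CPM against 67.2 to 81.9 CPM in the others, *Psmb8* at 11.8 CPM against 0.0784 to 1.69 CPM, and *Psmb9* at 10.8 CPM against 0.863 to 3.08 CPM. These are 3 of 36 groups of values examined, and chance alone gives such a gap in about 5% of groups.

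The effect of *Isl1* loss differed between P9 and E14.5 for 2 of the genes named. For *Isl1* the log2 fold change at P9 exceeded that at E14.5 by 1.57 (standard error 0.241, edgeR adjusted p = 0.000717). For the class II gene *H2-DMa* the difference was 3.05 (0.708, adjusted p = 0.0227), which no longer passed without E14.5 *Isl1CKO* library 1 (2.95, adjusted p = 0.0513) or library 3 (2.95, adjusted p = 0.0501).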

How the results depend on the processing

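At E14.5 the single member called, *B2m*, was not called without *Isl1CKO* libraries 3, 4 and 5, with the macrophage level as a term or in the fit of all 22 libraries (0 members each). All genes called numbered 228, against 653 with DESeq2, 42 without the 3 libraries, 82 with the macrophage term and 59 in the joint fit. At P9, total counts called 4 members and 3962 genes in place of 0 and 671, DESeq2 1677 genes, and the joint fit 1 member and 1812 genes. In the age comparisons, total counts called 4 members and 10636 genes in controls, and leaving out the 3 libraries gave 2058 genes in *Isl1CKO*. In the interaction, total counts called 1 member and 3180 genes, DESeq2 924 and the fit without the 3 libraries 57. Signs turned for *H2-D1* at E14.5 (-0.11 without the 3 libraries), *Tap1* at P9 (0.27 with total counts), *Psmb6* (-0.83), *Jak1* (-0.24) and *Nfkb1* (-0.051) in controls and *Jak1* (-0.16) in *Isl1CKO* between the ages with total counts, and the *B2m* interaction (0.44 with total counts, where the median of all genes is 0.68, and 0.14 without the 3 libraries). The cause was not tested.

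Leaving out 1 library at a time gave 0 to 1 members and 114 to 229 genes at E14.5, 0 members and 467 to 682 genes at P9, 5 to 7 members and 4331 to 5243 genes between the ages in *Isl1CKO*, 6 to 8 members and 4755 to 5649 genes in controls, and 0 members and 219 to 483 genes in the interaction. *Tap2* then ran from -0.024 to 0.465 at E14.5 and from -0.10 to 0.45 at P9, and *Tap1* from -0.74 to 0.035 at P9. The 6 ratio tests gave 0 calls in all settings.

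Deviations of libraries with the same replicate number correlated at -0.05 to 0.05. The control most alike had the same number for E14.5 *Isl1CKO* libraries 1 and 2 and P9 *Isl1CKO* libraries 3 and 4, and another number for the others compared. These values cannot decide whether replicate numbers pair the libraries. With the replicate block 134 genes were called at E14.5, *B2m* among them (1.10), and 336 at P9 with 0 members and *Tap1* at 0.35. The *Isl1* calls then just missed the threshold at E14.5 (-0.49, adjusted p = 0.051) and at P9 (0.94, adjusted p = 0.0638). *Nlrc5* had too few reads to be tested.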
